A study of Neogale vison with 6 samples.

Results

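The receptors of the ERBB family and the growth factors that bind them were followed in Mv1Lu cells, an epithelial line from mink lung, with and without cholesterol depletion (CD). The set comprises the receptors EGFR, ERBB2 and ERBB3, the ligands AREG, EREG, HBEGF, TGFA, BTC and NRG1, and the feedback inhibitor ERRFI1, each chosen by its symbol in the count table. Of these 10 symbols, 9 were found among the 24526 genes of the table, and AREG was absent. All 9 had enough reads to be tested. RNA was sequenced from 3 libraries of untreated cells (control) and from 3 libraries of cells kept for 16 h with 50 μM lovastatin, an inhibitor of HMG-CoA reductase, and 50 μM mevalonate, the product of that enzyme, in medium with 10% lipoprotein-deficient serum (LPDS). Statin, mevalonate and LPDS were given together, so their shares in a difference cannot be told apart. Which serum the control cells had during these hours is not stated in the labels. The labels do not say that the libraries of a group came from separate cultures, and the p-values then measure only the spread between these libraries, which may be technical.

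EGF-like ligands are made as precursors anchored in the plasma membrane and are released by metalloproteases. A released ligand brings receptors of the ERBB family together in pairs, and the paired receptors phosphorylate each other and start the Ras-ERK and PI3K cascades. EGFR binds TGFA, AREG, EREG, HBEGF and BTC, whereas neuregulins such as NRG1 bind ERBB3 and ERBB4. ERBB2 has no known ligand of its own and serves as a partner of the other receptors, and ERBB3 has little kinase activity and signals through its partner. In lung epithelium the family is known for its part in growth and in the repair of injury.

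The libraries held between 13473820 and 18633764 reads counted on genes. Expression is given in CPM, the share of a library's reads that fell on a gene, scaled by TMM, as the mean ± SD of 3 libraries where no single library is named. CD and control were compared with the quasi-likelihood test of edgeR over 12148 genes, and a gene was called at an FDR (Benjamini-Hochberg, over all of these genes) under 0.05. By this rule 47.7% of all tested genes were called, 24.8% higher and 22.9% lower in CD. In 58.0% of them the 3 CD libraries lay all above (29.5%) or all below (28.6%) the 3 control libraries. The treatment was seen in HMGCS1, an enzyme of cholesterol synthesis, which rose from 129.8 ± 15.6 to 1404 ± 239 CPM, and in INSIG1, a sterol sensor (log2 fold change 1.67). Of 8 epithelial markers 6 were found by symbol. KRT19, a keratin of simple epithelia, stood at 936 CPM in control, while EPCAM and CDH1, which define most epithelia, had only 7 and 8 reads in all control and 2 and 18 reads in all CD libraries. The biological coefficient of variation was 0.0842 among control and 0.213 among CD libraries.

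In CD, the receptors ERBB2 and ERBB3 and the ligands TGFA and EREG fell, and the ligand BTC rose. EGFR, HBEGF, NRG1 and ERRFI1 were not called. Thus 5 of the 9 tested genes were called, a share near that of all tested genes (47.7%), with 4 lower (22.9% of all tested genes) and 1 higher (24.8%). In 7 of the 9 the groups did not overlap (58.0% of all tested genes), 5 of them lower and 2 higher in CD. In a sum over all cells, fewer cells that express a gene and less RNA of it per cell cannot be told apart.

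**Figure D1:**
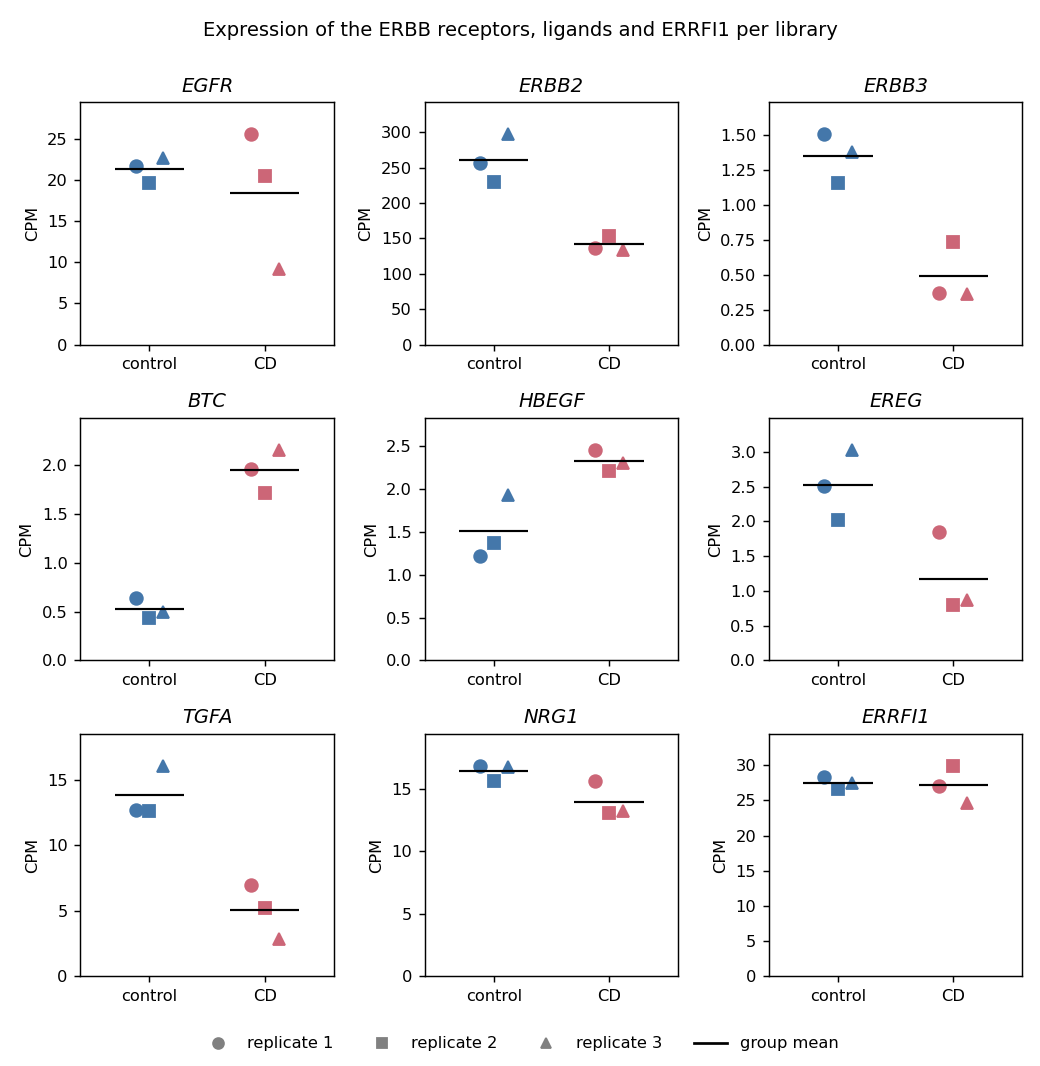
Expression of the 9 tested genes in CPM (vertical axis, from 0, with its own scale for each gene) in the 3 control (blue) and the 3 CD libraries (red), with the replicate number as the symbol and the group mean as a line. ERBB2, ERBB3, TGFA and EREG lie lower and BTC higher in every CD library, and EGFR ranges from 9.22 to 25.6 CPM within the CD group.

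ERBB2 (ENSNVIG00000004046), the partner receptor, was the member with the most reads. Its level was 256, 230.0 and 297 CPM in control replicates 1, 2 and 3, and 136, 154 and 134 CPM in CD replicates 1, 2 and 3. Every CD library lay well below the lowest control library, and the CD libraries lay closer together than the controls. The fall from 261 ± 33.9 to 141 ± 10.8 CPM (SD, n = 3 each) was called, with a log2 fold change of -0.88 ± 0.13 (SE, 95% interval -1.17 to -0.60, FDR 0.000316, edgeR), or 1.85-fold. It was called under all 18 alternative settings of the analysis, with log2 fold changes between -0.98 and -0.78.

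ERBB3 (ENSNVIG00000022259), the receptor for neuregulins, had few reads. Only 21, 16 and 25 reads were counted in control replicates 1, 2 and 3, and 6, 12 and 5 reads in the CD replicates. In CPM the means were 1.35 ± 0.176 in control and 0.488 ± 0.215 in CD. The groups did not overlap, and CD replicate 2 lay above the other CD libraries. The fall was called, at -1.43 ± 0.35 (SE) on the log2 scale (95% interval -2.21 to -0.66, FDR 0.00671, edgeR), and it was called under all 17 alternatives that tested it. Since ERBB3 reached 10 reads in all 3 control but in only 1 of the CD libraries, it entered the test through the group in which it is higher.

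EGFR (ENSNVIG00000013258), the receptor shared by most of the ligands studied here, stood at 21.6, 19.6 and 22.6 CPM in the control replicates. In the CD replicates 1, 2 and 3 it was at 25.6, 20.4 and 9.22 CPM. CD replicate 1 was thus the highest and CD replicate 3 the lowest of all 6 libraries, and the groups overlapped. The highest CD library held 2.77 times the EGFR level of the lowest, against 1.16 times among the controls, and only 4.26% of all tested genes had a larger ratio between their CD libraries. The mean was 21.3 ± 1.56 CPM in control and 18.4 ± 8.36 CPM in CD, a log2 difference of -0.21 ± 0.30 (SE, 95% interval -0.87 to 0.46, FDR 0.597, edgeR). Without CD replicate 3 the value was 0.074 (FDR 0.694) and without CD replicate 1 it was -0.51 (FDR 0.157, edgeR), so its direction rests on 1 library. A change of EGFR in either direction was not detectable with these libraries.

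Among the ligands of EGFR, TGFA (ENSNVIG00000003290), known as a growth factor that epithelial cells make for themselves, had the lowest log2 fold change. It was at 12.7, 12.6 and 16.1 CPM in the control replicates and at 7.01, 5.21 and 2.88 CPM in the CD replicates 1, 2 and 3. No CD library reached the controls, and CD replicate 3 held less than the other CD libraries, as for EGFR. TGFA fell 2.73-fold, a log2 fold change of -1.45 ± 0.28 (SE, 95% interval -2.08 to -0.81, FDR 0.00213, edgeR). Without CD replicate 3 it was -1.21 (FDR 3.51e-07, edgeR), and TGFA was called under all 18 alternative settings.

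EREG (epiregulin, ENSNVIG00000014847), which binds both EGFR and ERBB4, had 35, 28 and 55 reads in control replicates 1, 2 and 3, against 30, 13 and 12 reads after CD. Scaled to depth, this gives 2.51, 2.02 and 3.03 CPM in control and 1.84, 0.798 and 0.864 CPM in CD. CD replicate 1 came close to the lowest control library, and the other CD libraries lay far below it. The fall from 2.52 ± 0.503 to 1.17 ± 0.586 CPM was called (log2 fold change -1.10 ± 0.34 (SE), FDR 0.0228, edgeR). The call was lost without control replicate 1 (log2 fold change -1.11, FDR 0.0552), without control replicate 3 (-0.94, FDR 0.102) and without CD replicate 2 (-0.91, FDR 0.0742, edgeR). With all libraries EREG also did not pass a stricter FDR of 0.01.

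BTC (betacellulin, ENSNVIG00000014792), likewise a ligand of EGFR and ERBB4, was the only member called higher. In the control replicates 9, 6 and 9 reads were counted on it, and in the CD replicates 32, 28 and 30 reads. These correspond to 0.645, 0.434 and 0.496 CPM in control and to 1.97, 1.72 and 2.16 CPM in CD, and the groups lay far apart. On the log2 scale BTC rose by 1.88 ± 0.29 (SE, 95% interval 1.24 to 2.51, FDR 0.000465, edgeR), or 3.67-fold higher. None of the control libraries reached 10 reads, so BTC entered the test through the CD libraries, in which it is higher. In the 17 alternative settings in which it could be tested it was called, with log2 fold changes between 1.40 and 2.03.

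HBEGF (ENSNVIG00000014005), a ligand that is held at the cell surface by heparan sulfate, had 17, 19 and 35 reads in control replicates 1, 2 and 3 and 40, 36 and 32 reads after CD. The levels were 1.22, 1.37 and 1.93 CPM in control and 2.46, 2.21 and 2.31 CPM in CD. All CD libraries lay above all controls, but control replicate 3 came near to them. The log2 fold change of 0.60 ± 0.25 (SE, 95% interval 0.045 to 1.16) did not pass the threshold after adjustment (FDR 0.0712, edgeR). It passed without control replicate 3 (log2 fold change 0.84, FDR 0.0480, edgeR) and when limma-voom weighted the libraries by their quality (0.65, FDR 0.0267), and in none of the other 15 settings in which it could be tested.

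NRG1 (neuregulin 1, ENSNVIG00000006350), the ligand of ERBB3 in this set, was at 16.8, 15.6 and 16.7 CPM in control replicates 1, 2 and 3, and at 15.6, 13.1 and 13.2 CPM after CD. The groups touched without overlapping, with control replicate 2 and CD replicate 1 at nearly the same level. The difference was not called (log2 fold change -0.23 ± 0.15 (SE), 95% interval -0.58 to 0.11, FDR 0.244, edgeR), nor was it in any of 18 alternative settings.

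ERRFI1 (ENSNVIG00000006097), which binds the kinase domain of ERBB receptors and inhibits it, was the member with the smallest difference. It stood at 28.3, 26.6 and 27.4 CPM under control conditions and at 27.1, 29.9 and 24.6 CPM after CD, with overlapping groups. The 95% interval of its log2 fold change (-0.012, FDR 0.949, edgeR) ran from -0.32 to 0.29 and lay apart from that of ERBB2.

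**Figure D2:**
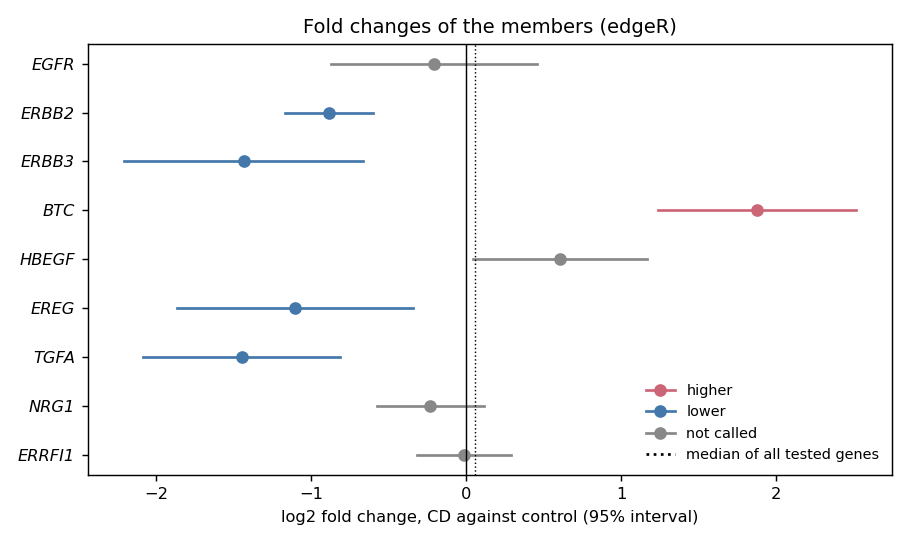
Log2 fold change of CD against control (horizontal axis) with its 95% interval (line) for the 9 tested genes in edgeR, coloured by the call at an FDR under 0.05. BTC is the only called gene to the right of 0, the intervals of ERBB2, ERBB3, EREG and TGFA end left of 0, and the dotted line is the median of all tested genes at 0.057.

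For AREG (amphiregulin) no row had the symbol. A row without a symbol that the table describes as amphiregulin, ENSNVIG00000014815, held 1 read in control replicate 3, 1 read in CD replicate 1 and 0 in the other libraries. It was below the filter on low counts and was not tested. The remaining genes of the family were as scarce. Of the 6 other ligands and receptors of the list, 5 were found and none was tested: ERBB4, the other receptor of neuregulins, had 1 read in control and 3 in CD, and EGF itself had 11 and 4 reads, of which control replicate 3 held 9. NRG2 had 3 reads in each group, NRG3 had 1 in each, and EPGN (epigen) had 0 in all 6 libraries, which allows up to 0.0648 CPM over the control and 0.0649 CPM over the CD libraries (3 reads over each group, counting error only). Differences in these genes were not detectable at this depth. The reads of the family thus came almost entirely from EGFR, ERBB2 and ERBB3 among the receptors, and from TGFA, NRG1, EREG, HBEGF and BTC among the ligands.

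BTC, AREG, EREG and EPGN follow each other in this order in the RefSeq annotation of mink assembly ASM_NN_V1, with PARM1 before and MTHFD2L after them as the nearest genes with a symbol. This assembly is not the one used by the authors, so only the order was taken from it. Along this row of genes, PARM1, a membrane mucin, fell (log2 fold change -1.52 ± 0.29 (SE), FDR 0.00166, edgeR), BTC rose (1.88), EREG fell (-1.10) and MTHFD2L, a mitochondrial enzyme of folate metabolism, rose (0.94 ± 0.26 SE, FDR 0.0123, edgeR). MTHFD2L went from 1.55 ± 0.161 to 2.99 ± 0.678 CPM and PARM1 from 3.29 ± 0.879 to 1.13 ± 0.250 CPM. Neighbors in this row thus differed in direction, with 95% intervals of 1.24 to 2.51 for BTC and -1.86 to -0.34 for EREG. Both had few reads. BTC entered the test only through the CD libraries, in which it is higher, so its interval is no independent support. EREG was called in only 3 of the 6 fits with 1 library left out.

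**Figure D3:**
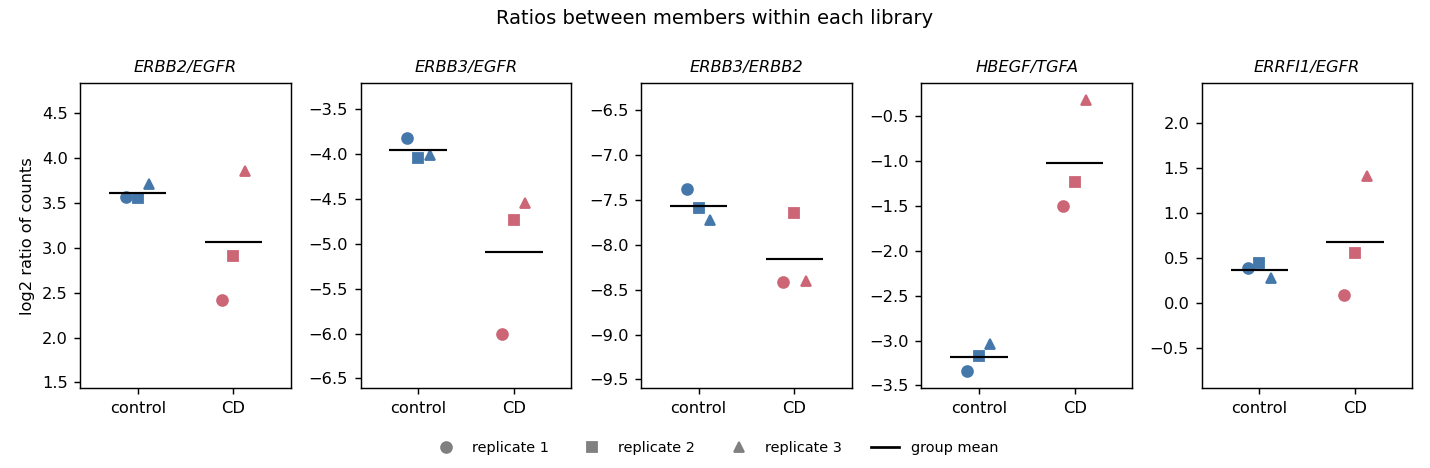
Log2 ratio of read counts between pairs of members in each library (vertical axes of equal span), for control (blue) and CD (red), with the replicate number as the symbol and the group mean as a line. The groups do not overlap for ERBB3/EGFR and HBEGF/TGFA, and CD replicate 3 stands highest of the CD libraries in the ratios to EGFR.

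Ratios within a library were compared because their change does not depend on the scaling of the libraries or on gene length. Of 6 ratios chosen, 5 could be formed. The log2 ratio of HBEGF to TGFA was -3.34, -3.17 and -3.04 in control replicates 1, 2 and 3, and -1.50, -1.23 and -0.32 after CD. It moved toward HBEGF by 2.17 on the log2 scale, or 4.50-fold. ERBB3 to EGFR went from a mean of -3.96 ± 0.12 to -5.10 ± 0.79 (SD, n = 3 each), a difference of -1.14 that was -0.69 without CD replicate 1. In both cases the groups did not overlap (p = 0.1 in a two-sided exact permutation test, which cannot give less with 3 libraries a group, and 0.25 after adjustment over 5 ratios). For ERBB2 to EGFR (difference -0.55, exact permutation p = 0.4), ERBB3 to ERBB2 (-0.59, p = 0.2) and ERRFI1 to EGFR (0.31, p = 0.7) the groups overlapped. The ratio of ERBB2 to EGFR was 3.56, 3.55 and 3.71 on the log2 scale in the controls but 2.41, 2.91 and 3.86 in the CD replicates, where CD replicate 3 exceeded every control.

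Several members differed among the CD libraries. In 5 of the 9 genes CD replicate 3 was the lowest CD library, which was also the case in 41.0% of all tested genes. The range among CD libraries exceeded that among the controls in 6 of the 9 genes, and in 76.2% of all tested genes. CD replicate 3 also had the most unmapped reads of the CD libraries (9.37%, against 3.54% for the lowest), while the controls lay between 4.25% and 18.4%, and its part in these differences was not tested. With CD replicate 3 left out, 1 member was higher and 4 were lower, while over all genes the calls went from 3016 to 3616 higher and from 2784 to 3606 lower.

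**Figure D4:**
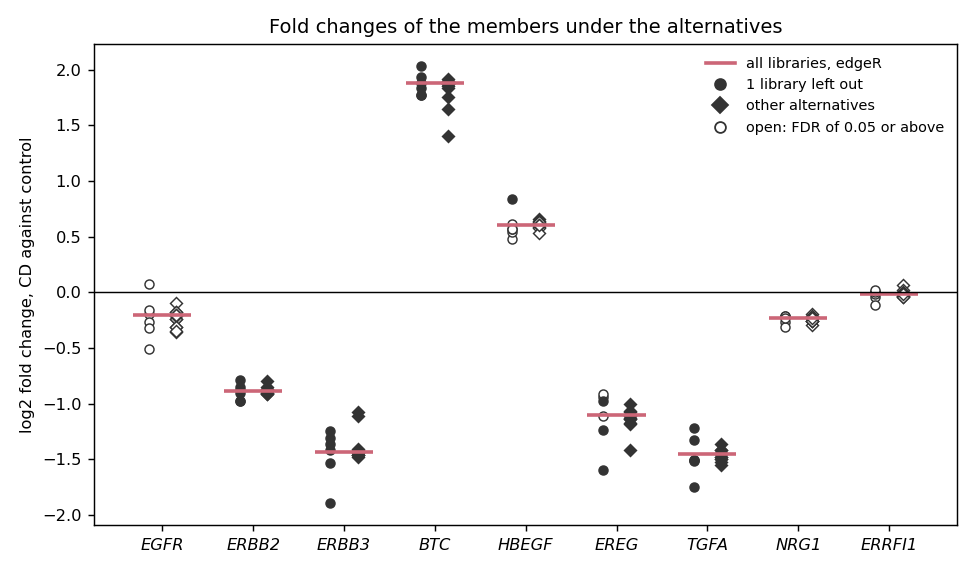
Log2 fold change of CD against control (vertical axis) for each member with all libraries (red line), with 1 library left out (circles) and under the other alternatives (diamonds), filled where the FDR was under 0.05. ERBB2, ERBB3, TGFA and BTC are filled throughout, EREG is open in 3 cases, and EGFR lies between -0.51 and 0.074 and is open throughout.

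The genes whose profile over the 6 libraries lay nearest to the members with the largest rise and the largest fall were taken by Euclidean distance between centered log2 CPM values. For BTC they included THEM5 (distance 0.14) and FILIP1 (0.24), against a median distance of 2.14 over all tested genes with a symbol. THEM5, a thioesterase, stood at 0.392 ± 0.106 CPM in control and at 1.45 ± 0.150 CPM in CD, and like BTC it entered the test through the CD libraries, as 0 of the control libraries had 10 reads. For TGFA they were HS6ST2 (0.14), EPHA4 (0.17) and CRIM1 (0.19), with a median of 2.16. HS6ST2, which sulfates heparan sulfate, was at 27.3 ± 2.86 CPM in control and at 9.45 ± 3.57 CPM in CD, and EPHA4, itself a receptor tyrosine kinase, had a log2 fold change of -1.36. As these genes were picked for their likeness to BTC and TGFA, the direction of their differences follows from the choice.

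The rest of the pathway was followed in lists of 79 genes, of which 75 were found, 8 of them under an older or a UniProt-style name in the table, and 66 tested. Of the tested ones, 24 were called higher and 6 lower, so that 45.5% were called, near the share of all tested genes (47.7%). Of the genes that govern ligand release, 7 were tested, of which 2 were lower and 0 higher (22.9% and 24.8% of all tested genes). The lower ones were RHBDF1 and RHBDF2, which encode iRhoms, the inactive rhomboid proteins that carry the sheddase ADAM17 to the cell surface. RHBDF2 went from 33.1 ± 4.13 to 19.2 ± 4.64 CPM (log2 fold change -0.79, FDR 0.00774) and RHBDF1 from 141 ± 8.50 to 94.9 ± 6.93 CPM (-0.57, FDR 0.00209, edgeR). ADAM17, which cleaves TGFA, HBEGF and EREG from the membrane, had a log2 fold change of 0.38 and was not called (FDR 0.149, edgeR). ADAM10, the sheddase of BTC, had a log2 fold change of -0.14 and was not called either (FDR 0.701, edgeR).

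Among the adaptors and the kinases of the Ras-ERK cascade, 10 of 17 tested genes were higher and 1 was lower (24.8% and 22.9% of all tested genes). Their median log2 fold change was 0.63, against 0.057 over all tested genes. SOS1, the exchange factor that loads Ras with GTP, rose from 14.7 ± 2.69 to 28.6 ± 8.21 CPM (log2 fold change 0.96, FDR 0.00647, edgeR). The lower gene was ARAF, a kinase of the Raf family, which fell from 208 ± 14.6 to 139 ± 8.84 CPM (-0.58, FDR 0.00177, edgeR). In the branches of PI3K, phospholipase C and STAT 2 of 12 tested genes were called (47.7% of all tested genes), PIK3CA and STAT3. Both were higher (0.74 and 0.63), and neither was called under all alternatives: PIK3CA in 16 of 18 and STAT3 in 11 of 18.

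Among the genes of receptor turnover and inhibition, 5 of 16 tested were higher and 3 lower, both near the shares of all tested genes (24.8% and 22.9%). LRIG3, a membrane protein of a family that binds ERBB receptors, fell from 2.22 ± 0.450 to 0.694 ± 0.126 CPM (log2 fold change -1.66, FDR 0.00110, edgeR), with 10 reads in all 3 control but in only 2 of the CD libraries, so that it entered the test through the controls. RNF41, the ubiquitin ligase that directs ERBB3 to degradation, fell from 176 ± 4.65 to 124 ± 6.22 CPM (-0.51, FDR 0.00255, edgeR). GRB10, an adaptor that inhibits growth factor receptors, rose from 103 ± 8.22 to 194 ± 7.10 CPM (0.92, FDR 9.87e-05, edgeR), and TNK2, a kinase that binds EGFR in endocytosis, by 0.87 on the log2 scale (FDR 0.000208). Of the genes known to be transcribed in response to ERK, 7 of 14 tested were higher and 0 lower (24.8% and 22.9% of all tested genes), and the median was 0.47 on the log2 scale. DUSP4, a phosphatase that inactivates ERK in the nucleus, rose from 11.4 ± 0.694 to 158 ± 31.5 CPM (3.79, FDR 3.46e-07, edgeR) and PHLDA1 from 3.81 ± 0.483 to 13.1 ± 1.80 CPM (1.78, FDR 6.34e-05, edgeR).

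**Figure D5:**
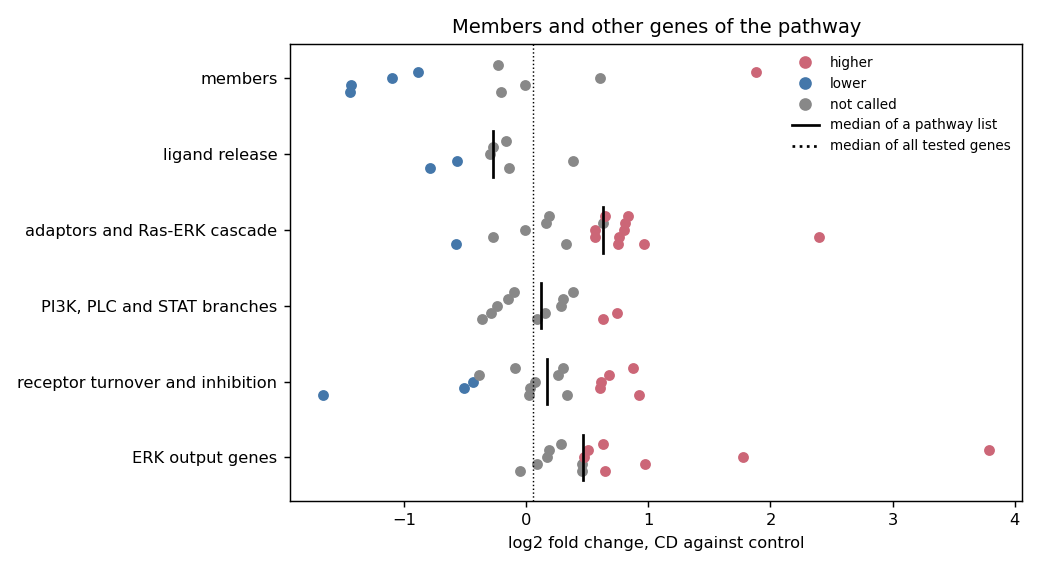
Log2 fold change of CD against control (horizontal axis) for the 9 members and the 66 tested genes of the 5 pathway lists, coloured by the call in edgeR, with the median of each pathway list as a black line. The cascade and the ERK output genes lie mostly to the right of the dotted line, the median of all tested genes at 0.057, and the called genes of ligand release lie to its left.

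The number of higher genes in these lists depended on single libraries. It was 14 without control replicate 2 and also 14 without control replicate 3, against 24 with all libraries, and 10 genes were lower without CD replicate 1. The calls over all tested genes moved too, from 3016 higher to 2391 and 2216 without control replicates 2 and 3. Without CD replicate 1 the lower calls over all genes went from 2784 to 2883. Cell type markers moved as well, in data where 24.8% of all tested genes were called higher and 22.9% lower. The summed level of 6 fibroblast markers was 303 to 379 CPM in control and 179 to 228 CPM in CD, carried by collagens (3 of 4 tested lower). The other fibroblast markers did not fall with them. PDGFRA was not called (log2 fold change -0.043), and DCN and LUM, below the filter, went from 3 to 15 and from 7 to 35 reads. The sum of 6 epithelial markers was 885 to 1012 CPM in control and 386 to 541 CPM in CD, carried by KRT19. Of these, 1 of 3 tested was lower, KRT19, and 1 higher, CLDN4, which reached 10 reads in all 3 CD libraries but in only 1 control library. The 5 endothelial markers summed to 206 to 221 CPM in control and 75.9 to 124 CPM in CD, nearly all of it TEK (TEK lower and VWF higher of 2 tested, VWF with 10 reads in CD libraries only), while PECAM1 and CDH5 were at 0 in control and at 11 and 1 reads in CD. Of 6 immune markers 5 were found, with a sum of 5.20 to 5.84 CPM in control and 17.6 to 23.3 CPM in CD, mostly CD68 (2 of 2 tested higher, of which CD14 reached 10 reads in the CD libraries only), while PTPRC, which defines white blood cells, had 1 read in all libraries and CD79A had 0. Their part in the changes of the ERBB family was not tested.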

How the data were processed

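For the 6 libraries, raw counts per gene were deposited by the authors. According to the methods and the submitters' processing notes, reads were trimmed with fastp 0.20.1, aligned with STAR 2.7.2a and compared with DESeq2 1.30.1 in R 4.0.3. The counting step and its use of strand are not given in the sources used here, so overlapping genes are uncertain. Another 4 rows, for reads not assigned to a gene, held 29.3% to 47.2% of the reads of a library and were left out. The deposited normalized expression is a signal, each count over the library's size factor: 100% of 147156 values gave whole reads within 0.01. Since its identifiers follow another order, it was paired with genes by row. On the recovered reads edgeR called 3016 higher and 2784 lower genes, as on the counts.

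Differential expression was tested on the counts in R 4.3.3 by edgeR 4.0.16 (filterByExpr with a minimum of 10 counts and a total of 15, TMM, robust glmQLFit, glmQLFTest, condition as the only term). Standard errors are the log2 fold change divided by the square root of F, with a median of 0.18. The alternatives used DESeq2 1.42.0 and limma 3.58.1. On simulated counts, edgeR recovered 76.8% of 99 tested genes changed by 1 on the log2 scale, among 12019 genes tested. The simulation gave a gene the same dispersion in both groups. In the data the biological coefficient of variation was 0.0842 in control and 0.213 in CD, so this share is not the power in these libraries. No pair of libraries of a group agreed within sampling noise (chi-square per degree of freedom of at least 9.41), so none was treated as a repeat deposit. Whether they are separate cultures is not shown by this.

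The members and lists were chosen with earlier results of these data known. Genes of the lists that the table holds under another name (8) were matched by that name, 6 of them after the data were seen. All members were named, and of each list up to 4 called genes, the 2 at either end of the log2 fold changes. The checks of the treatment and the 3 genes nearest in profile to the members with the largest rise and fall were named as well, except that 1 gene each of the checks, the nearest genes and the lists is not reported here. ADAM10, ADAM17, the flanking genes and single markers were named after their values were seen. No genome of the authors' build was used here, so coordinates and sequences are not given. Without gene lengths, levels were not compared between genes.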

Additional observations from a re-analysis of the deposited data

How the results depend on the processing

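The alternatives were DESeq2, limma-voom with and without quality weights, other scalings, other filters on low counts, the replicate block, the deposited normalized expression, an FDR of 0.01 and each library left out. Of all genes, 2006 were higher at an FDR of 0.01. With quality weights 2 members were higher (HBEGF, log2 fold change 0.65, joined BTC) and 10 genes of the pathway lists were lower. Over all genes 3845 were then higher and 3586 lower. With at least 50 counts in 3 libraries, 0 members were higher and 2 lower, because BTC, HBEGF, EREG and ERBB3 were no longer tested. This filter gave 2633 higher and 2487 lower genes in all. Leaving out 1 library gave 1 to 2 higher and 3 to 4 lower members, 14 to 32 higher and 6 to 10 lower genes of the pathway lists (2216 to 3616 higher and 2194 to 3606 lower over all genes), and log2 fold changes of -0.51 to 0.074 for EGFR, -1.59 to -0.91 for EREG, 0.47 to 0.84 for HBEGF and -0.12 to 0.021 for ERRFI1. ERRFI1 was at 0.070 with quality weights, 0.019 with upper quartile scaling and 0.0031 with total counts. With 1 library left out, the change of the log2 ratio of ERRFI1 to EGFR lay between -0.051 and 0.61, and that of ERBB2 to EGFR between -0.95 and -0.23. Samples of the same replicate number did not deviate together (Pearson r across genes of -0.024, -0.33 and -0.18 for numbers 1, 2 and 3). Control replicate 3 and CD replicate 2 gave 0.26. With 3 libraries a group this cannot show whether equal numbers share a day or a culture, which the labels do not state. With the replicate block 1 member was higher and 4 were lower, and 2772 genes were higher and 2636 lower in all. Matching the lists by symbol alone, chosen after seeing the data, left 59 tested genes with 20 higher and 6 lower. Of 13 genes of the lists chosen by the naming rule, 11 were called under every alternative in which they were tested, and none changed direction. Low counts limit ERBB3, EREG, HBEGF and BTC most.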
